A study of Mus musculus with 18 samples.

Results

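The 92 genes of the mouse whose symbols start with Kcn were described in the hypothalamus of BPH/2J hypertensive and BPN/3J normotensive mice. They were all the probesets with a single platform gene symbol of that kind, 95 in number, and each gene was represented by the probeset with the highest mean over the 18 arrays. They were 92 of 19937 genes with a single symbol, among 34760 probesets. Male mice of both Schlager strains were sampled either in the active period, at ‘peak’ BP, or in the inactive period, at ‘trough’ BP. The ‘peak’ groups held 6 mice per strain, all 26 weeks old, and the ‘trough’ groups 3 mice per strain, 18 weeks old by their own labels. Time of day and age therefore differed together and cannot be told apart in any comparison of ‘peak’ with ‘trough’. Only standard housing is named as their treatment, the RNA of 1 mouse went on each Affymetrix Mouse Gene 1.0 ST array, and both strains are inbred lines that were selected for their BP. For the 3 BPN/3J mice at ‘trough’ BP, one label names the other strain, and their titles were followed.

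All values are RMA values on the log2 scale, so that a difference of 1 is a doubling. A gene was called when its adjusted *P* in the limma fit of all 4 groups, with Benjamini-Hochberg adjustment over all 34760 probesets, was under 0.05. The values are of whole tissue, where fewer cells of a type and less RNA per cell cannot be told apart. Median values per array lay between 6.17 and 6.42, and the lowest mean correlation of an array with its own group was 0.967, in BPN/3J ‘peak’ mouse 11. Of 13 hypothalamic markers, measured in all groups, mean signals over the arrays ran from 5.52 for *Vip* to 12.1 for *Pmch*. *Oxt* was at 9.38 and *Hcrt* at 9.32, while *Vip* and *Crh* (6.25) lay under the median signal of all probesets. The mean of the 13 ran from 7.16 in BPN/3J ‘peak’ mouse 10 to 8.36 in BPH/2J ‘peak’ mouse 4. Markers of thalamus were measured as well, with list means between 9.58 and 10.52. The labels give the whole hypothalamus and the study’s methods its paraventricular and dorsomedial nuclei. Of the 92 genes, 80 had a mean signal over the 40th percentile of all probesets.

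Potassium channels let potassium leave the cell, which pulls the membrane back to rest after an action potential, sets how often a neuron fires and holds the resting potential. The pore is built from voltage-gated subunits (Kv, with the Kv7 and EAG families), from subunits opened by calcium or sodium ions, from inward rectifiers, or from two-pore leak subunits, and auxiliary subunits bound to them alter their gating and their traffic to the membrane. In the hypothalamus they shape the firing of neurosecretory and autonomic neurons, and in suprachiasmatic neurons several potassium currents differ between day and night. By symbol, the 92 genes comprised 15 of the Kv1 to Kv4 subfamilies, 3 of Kv7, 7 of the EAG family, 10 modifying Kv subunits, 8 calcium- or sodium-activated subunits, 15 inward rectifiers, 14 two-pore subunits, 16 auxiliary subunits and 4 other symbols.

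Potassium channel genes were more often lower than higher at ‘peak’ BP in both strains. Of the 92, 9 fell and 1 rose in BPH/2J mice, or 10.9% called, where 8.64% of all probesets were called, 4.39% of them lower and 4.25% higher. There were 20 that fell and 4 that rose in BPN/3J mice, or 26.1%, where 25.3% of all probesets were called, 12.4% lower and 12.9% higher. Over all 19937 genes by their brightest probeset, 10.2% were called in BPH/2J mice (5.61% lower) and 28.7% in BPN/3J mice (14.7% lower). The share of calls was thus near that of the array, and the calls of these genes lay mostly on the lower side. The median difference over the 92 genes was -0.15 in BPH/2J mice and -0.20 in BPN/3J mice, against -0.02 and -0.01 over all probesets, with 74 and 68 of the 92 below 0. An unadjusted *P* under 0.05 was reached by 28 genes in BPH/2J mice and 41 in BPN/3J mice, against 23.1% and 39.9% of all probesets. In all, 34 genes were called in at least 1 of the 5 comparisons and 58 in none. Groups of ‘peak’ and ‘trough’ mice did not overlap for 21 of the 92 genes in BPH/2J mice, where 17.7% of all probesets did not, and for 22 in BPN/3J mice, where 20.8% did not.

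These counts moved with single mice and with the choice of ‘peak’ mice. The higher-numbered ‘peak’ mice were 8 and 9 in BPH/2J and 10 and 11 in BPN/3J. With these ‘peak’ mice only, 1 gene was called between the times in BPH/2J mice and 6 in BPN/3J mice. With the lower-numbered ‘peak’ mice only, 23 and 36 were called. The 10 calls in BPH/2J mice became 2 without ‘trough’ mouse 2 or without ‘trough’ mouse 3, 5 without ‘trough’ mouse 1 or without ‘peak’ mouse 5, and 6 without ‘peak’ mouse 7. The 24 calls in BPN/3J mice became 10 without ‘trough’ mouse 1 and 11 without ‘trough’ mouse 3, and there were 24 without ‘trough’ mouse 4. With each array centred on its median, the calls were 3 lower and 1 higher in BPH/2J mice and 13 lower and 4 higher in BPN/3J mice, and the median differences over the 92 genes were -0.09 and -0.11.

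**Figure D1:**
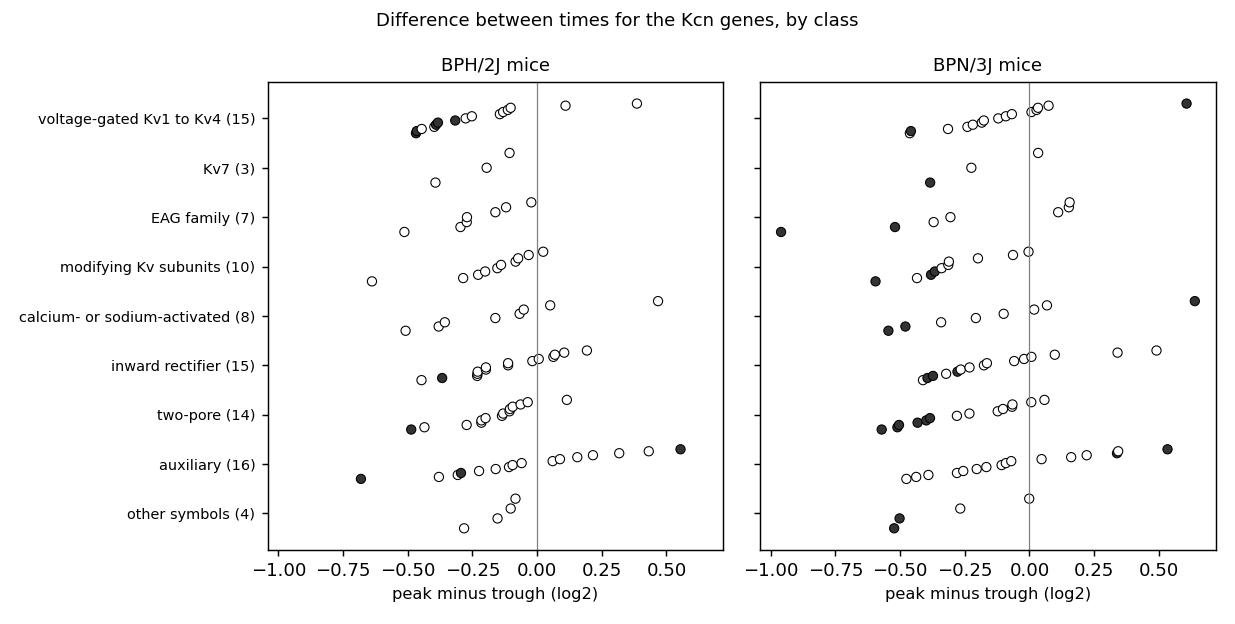
Differences between ‘peak’ and ‘trough’ BP on the log2 scale (horizontal axis) for the 92 potassium channel genes by class (rows, with the number of genes), in BPH/2J mice at the left and BPN/3J mice at the right. Each circle is 1 gene and filled circles passed the test. Most circles lie left of 0 in both strains. Filled ones are most numerous among the Kv1 to Kv4 subunits in BPH/2J mice and among the two-pore subunits in BPN/3J mice. In BPN/3J mice every class holds filled circles.

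A pair of members moved alike in both strains: *Kcnip4* rose and *Kcnj12* fell at ‘peak’ BP. *Kcnip4* encodes KChIP4, a calcium-binding subunit of the Kv4 channels that carry the A-type current and delay the return to threshold. In BPH/2J mice it measured 9.49, 9.82 and 9.74 in ‘trough’ mice 1 to 3, and ran from 10.02 through a median of 10.26 to 10.35 at ‘peak’ BP. The BPN/3J values were 9.60, 9.61 and 9.61 in ‘trough’ mice 1, 3 and 4, and they ran from 9.95 through 10.18 to 10.33 at ‘peak’ BP. Every ‘peak’ mouse of either strain thus lay above every ‘trough’ mouse of its strain, and the strains overlapped at both times. The rise was 0.55 (SE 0.10, adjusted *P* = 0.00278) in BPH/2J and 0.53 (SE 0.10, adjusted *P* = 0.00192) in BPN/3J mice, a fold change of 1.47 and 1.45. The call held under every alternative run in BPH/2J mice, with a highest adjusted *P* of 0.0438, and in BPN/3J mice under all but the fit with the higher-numbered ‘peak’ mice only (adjusted *P* = 0.0572).

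*Kcnj12* encodes Kir2.2, one of the strong inward rectifiers that hold the resting potential near the potassium equilibrium. In BPH/2J mice it measured 7.50, 7.68 and 7.83 in ‘trough’ mice 1 to 3, against 7.14 to 7.48 with a median of 7.33 at ‘peak’ BP. The BPN/3J values were 7.52, 7.46 and 7.68 in ‘trough’ mice 1, 3 and 4, against 7.16 to 7.37 with a median of 7.30 at ‘peak’ BP. The times did not overlap in either strain, though the nearest BPH/2J mice of the 2 times were close. The differences were -0.37 (SE 0.09, adjusted *P* = 0.0207) and -0.28 (SE 0.09, adjusted *P* = 0.0371), and both lost the call with each array centred on its median (adjusted *P* = 0.0945 and 0.214). The call in BPH/2J mice was also lost without ‘trough’ mouse 2 or 3 (adjusted *P* = 0.0772 and 0.136), and that in BPN/3J mice without any of the 3 ‘trough’ mice or ‘peak’ mouse 6, 7, 8 or 10 (adjusted *P* up to 0.138). Its relatives *Kcnj2*, *Kcnj4* and *Kcnj14* of the Kir2 subfamily were not called in any comparison.

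**Figure D2:**
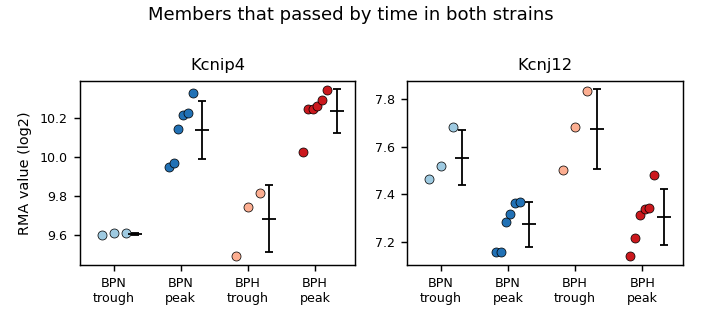
RMA values (log2, vertical axis) of *Kcnip4* and *Kcnj12* in each mouse by group, with circles for mice and bars for the group mean and SD. In both strains all ‘peak’ mice lie above all ‘trough’ mice for *Kcnip4* and below them for *Kcnj12*.

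The 250 bases before the RefSeq starts of both genes (GRCm38.p6) are shown. These genes were the only members called the same way in both strains. The bases were searched, on both strands, for the core motif AGGTCA, the E-box CACGTG and the cAMP element TGACGTCA. AGGTCA is only the core of the sites of the clock-related ROR and REV-ERB receptors. The bases beside it were not searched, so a match does not establish a site of these receptors. *Kcnip4* has a pair of starts with such a window, at chr5:49285660-49285909 and chr5:48599683-48599932, both on the minus strand, and *Kcnj12* has one at chr11:61065554-61065803 on the plus strand. Capitals mark the only match, an AGGTCA core in the reverse orientation 117 bases before the first *Kcnip4* start.
Kcnip4, first start: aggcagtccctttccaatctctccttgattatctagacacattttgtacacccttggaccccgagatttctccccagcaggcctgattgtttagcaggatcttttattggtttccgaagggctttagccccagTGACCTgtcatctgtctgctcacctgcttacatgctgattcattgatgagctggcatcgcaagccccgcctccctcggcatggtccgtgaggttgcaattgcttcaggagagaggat
Kcnip4, second start: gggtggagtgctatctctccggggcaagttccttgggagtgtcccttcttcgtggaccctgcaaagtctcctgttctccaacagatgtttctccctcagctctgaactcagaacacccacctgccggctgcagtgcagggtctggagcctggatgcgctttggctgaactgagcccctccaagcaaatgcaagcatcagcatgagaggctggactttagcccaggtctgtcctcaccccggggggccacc
Kcnj12: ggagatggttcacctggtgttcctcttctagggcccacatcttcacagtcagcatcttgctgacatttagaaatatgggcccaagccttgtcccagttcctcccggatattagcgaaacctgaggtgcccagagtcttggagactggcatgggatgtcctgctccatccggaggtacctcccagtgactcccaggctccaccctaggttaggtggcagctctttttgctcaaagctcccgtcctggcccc
Of 95 windows of 70 members, 6 held the AGGTCA core (6.32%), where 14.0% of all 32851 windows did. The 6 genes with it were *Kcna10*, *Kcnf1*, *Kcnh1*, *Kcnip4*, *Kcnj16* and *Kcnk10*. The E-box was in 6 member windows, of *Kcnab1*, *Kcne4*, *Kcnh4*, *Kcnj2* and *Kcnn4*, or 6.32% against 6.02% of all windows. The cAMP element was in 0 of the 95 and in 1.55% of all.

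The Kv1 to Kv4 genes form the delayed and A-type currents that end the action potential. Of these 15, 5 fell and 0 rose at ‘peak’ BP in BPH/2J mice, or 33.3% lower where 4.39% of all probesets were. The share lower was 5.61% over all genes by their brightest probeset and 7.85% over probesets above the median signal. In BPN/3J mice 1 of the 15 fell and 1 rose, or 13.3% called where 25.3% of all probesets were. The 5 that fell in BPH/2J mice were *Kcnc1* (Kv3.1, of fast-firing neurons), *Kcnd3* and *Kcnd1* (of the Kv4 subfamily that KChIP4 binds), and *Kcna2* and *Kcna6* (of the Kv1 subfamily found along axons). All 9 genes that fell in BPH/2J mice had a mean above the median signal of all probesets. So did 1364 of the 1527 probesets called lower in BPH/2J mice, and 69 of the 92 genes. In the probeset used, each of the 9 genes also had a difference below 0 in BPN/3J mice, although only *Kcnj12* was called there.

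*Kcnc1* measured 9.08, 9.21 and 9.29 in BPH/2J ‘trough’ mice 1 to 3 and 8.62 to 8.81, with a median of 8.73, at ‘peak’ BP. All ‘peak’ mice thus lay below all ‘trough’ mice, by -0.46 on average (SE 0.10, adjusted *P* = 0.0100). In BPN/3J mice it measured 8.49, 8.85 and 8.81 in ‘trough’ mice 1, 3 and 4 and 8.41 to 8.86, with a median of 8.48, at ‘peak’ BP, where the times overlapped and the difference of -0.18 was not called (adjusted *P* = 0.192). *Kcnd3* measured 9.16, 9.36 and 9.18 in BPH/2J ‘trough’ mice 1 to 3 and 8.75 to 8.92, with a median of 8.85, at ‘peak’ BP, again with no overlap (-0.39, SE 0.08, adjusted *P* = 0.00755). The BPN/3J values of *Kcnd3* were 8.78, 8.98 and 9.11 in ‘trough’ mice 1, 3 and 4 and 8.77 to 9.01 at ‘peak’ BP, with a difference of -0.09 (adjusted *P* = 0.424). The fall in BPH/2J mice was not shown to differ from that in BPN/3J mice for either gene, as the test of *d* given further on had an adjusted *P* of 0.613 for *Kcnc1* and 0.590 for *Kcnd3*.

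*Kcnd1* lay at 6.82, 6.77 and 7.01 in BPH/2J ‘trough’ mice 1 to 3 and at 6.30 to 6.69 at ‘peak’ BP, without overlap (-0.38, SE 0.11, adjusted *P* = 0.0322). *Kcna6* lay at 9.58, 9.69 and 9.77 against 9.20 to 9.47, also without overlap (-0.32, SE 0.08, adjusted *P* = 0.0190). *Kcna2* was at 9.96, 10.15 and 10.26 in the ‘trough’ mice and at 9.49 to 10.01 at ‘peak’ BP, so that the groups overlapped at a difference of -0.47 (SE 0.14, adjusted *P* = 0.0489). A further *Kcna2* probeset gave -0.22 (adjusted *P* = 0.101). In BPN/3J mice the brighter probeset gave -0.12 (adjusted *P* = 0.546) and the further one 0.11 (adjusted *P* = 0.326). The *Kcna2* call in BPH/2J mice was lost in 17 of 30 alternatives. *Kcna1*, another axonal Kv1 subunit, differed by -0.40 (adjusted *P* = 0.0664), and *Kcnc2* and *Kcnd2* by -0.25 (adjusted *P* = 0.323) and -0.10 (adjusted *P* = 0.727). In BPN/3J mice only *Kcna4* and *Kcna10* of this class were called. *Kcna4*, a Kv1 subunit with rapid inactivation, rose from 7.86, 8.50 and 8.54 in ‘trough’ mice 1, 3 and 4 to between 8.51 and 9.29 at ‘peak’ BP (0.61, SE 0.16, adjusted *P* = 0.0127), with an overlap of the groups. Without ‘trough’ mouse 1 the *Kcna4* difference was 0.39 and not called (adjusted *P* = 0.111), and the call was lost in 4 of 30 alternatives. In BPH/2J mice its ‘peak’ values, from 8.82 to 9.14, lay wholly above the ‘trough’ values of 8.37, 8.56 and 8.73, with a difference of 0.39 that was not called (adjusted *P* = 0.148).

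**Figure D3:**
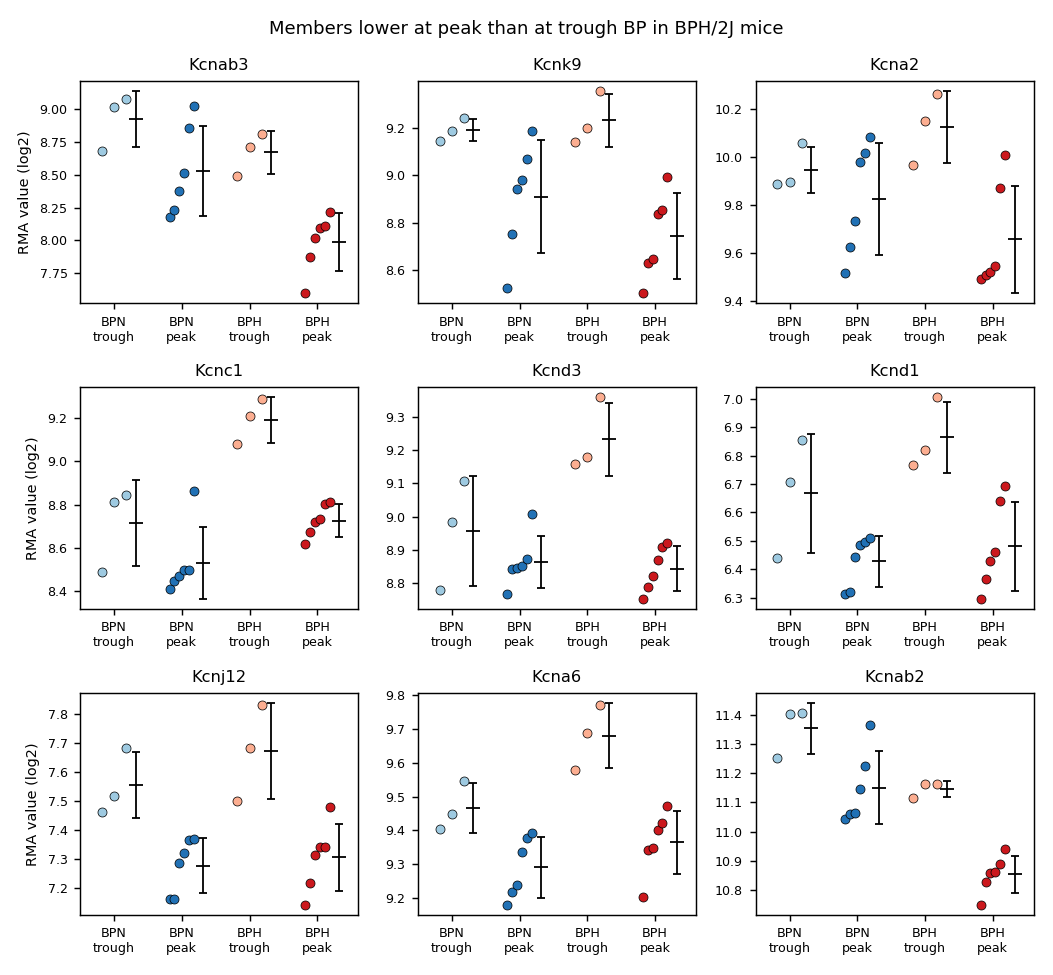
RMA values (log2, vertical axis) of the 9 potassium channel genes that fell at ‘peak’ BP in BPH/2J mice, in each mouse by group, with circles for mice and bars for the group mean and SD. The BPH/2J groups overlap for *Kcna2* alone among these 9.

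The Kv7 and EAG families carry slow currents that restrain repetitive firing. Of their genes, 0 of 10 were called in BPH/2J mice, where 8.64% of all probesets were, and 3 fell in BPN/3J mice. The falls were 33.3% of the Kv7 and 28.6% of the EAG genes, where 12.4% of all probesets were lower. The difference of *Kcnh3*, an EAG family gene of forebrain neurons, was the largest in size of the 92 genes in BPN/3J mice. It measured 6.80, 7.21 and 7.93 in ‘trough’ mice 1, 3 and 4 and 6.17 to 6.75, with a median of 6.32, at ‘peak’ BP (-0.96, SE 0.22, adjusted *P* = 0.00558). The groups did not overlap, and BPN/3J ‘trough’ mouse 4, the highest, also had the higher cortex marker mean of its group (7.39, against 5.81 and 5.91), as did ‘peak’ mouse 8, the highest of its group (6.75), with 7.77 against 5.54 to 6.00. The part of cortex in this result was not tested. For BPH/2J mice *Kcnh3* was at 7.03, 6.88 and 7.0 in ‘trough’ mice 1 to 3 and at 6.11 to 7.08 at ‘peak’ BP (-0.51, adjusted *P* = 0.157). *Kcnh4* of the same family fell in BPN/3J mice (-0.52, SE 0.13, adjusted *P* = 0.00992) and *Kcnh2* differed by -0.31 (adjusted *P* = 0.0675). *Kcnq3*, a subunit of the neuronal M-current, differed by -0.39 in BPH/2J mice (adjusted *P* = 0.0634) and by -0.22 in BPN/3J mice (adjusted *P* = 0.193).

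The modifying Kv subunits form no channel of their own and alter the Kv2 subunits they join. Of these genes 0 of 10 were called in BPH/2J mice, where 8.64% of all probesets were, with 9 below 0. In BPN/3J mice 3 fell, with all 10 below 0. The 3 were 30% of the class, where 12.4% of all probesets were lower. *Kcns1* led them in BPN/3J mice, at 6.81, 7.15 and 7.19 in ‘trough’ mice 1, 3 and 4 and 6.29 to 6.68 at ‘peak’ BP, without overlap (-0.60, SE 0.12, adjusted *P* = 0.00343). *Kcns2* and *Kcnv1* differed by -0.00 and -0.31 there (adjusted *P* = 0.992 and 0.447). Among the subunits opened by ions, *Kcnn1* and *Kcnn4* fell in BPN/3J mice and *Kcnt2* rose. In BPH/2J mice 0 of 8 were called, where 8.64% of all probesets were. In BPN/3J mice 37.5% of this class were thus called, where 25.3% of all probesets were. *Kcnn4*, the intermediate-conductance calcium-activated channel of microglia and blood vessels, measured 6.51, 6.40 and 6.26 in BPN/3J ‘trough’ mice 1, 3 and 4 and 5.64 to 6.06 at ‘peak’ BP (-0.55, SE 0.12, adjusted *P* = 0.00612). Its BPN/3J groups did not overlap and its call held under all 30 alternatives. *Kcnn1*, a small-conductance channel of neurons, differed by -0.48 (SE 0.11, adjusted *P* = 0.00611) in BPN/3J mice and by -0.36 (adjusted *P* = 0.0522) in BPH/2J mice. *Kcnt2*, a sodium-activated channel, differed by 0.64 in BPN/3J mice (SE 0.22, adjusted *P* = 0.0444), with overlapping groups and the call lost in 16 of 30 alternatives, at 0.41 without BPN/3J ‘trough’ mouse 1 (adjusted *P* = 0.272). Its relative *Kcnt1* differed by -0.51 in BPH/2J mice (adjusted *P* = 0.0502) and *Kcnn3* by -0.05 (adjusted *P* = 0.860).

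Of 15 inward rectifiers, *Kcnj12* alone was called in BPH/2J mice, and *Kcnj12*, *Kcnj11* and *Kcnj15* fell in BPN/3J mice. These falls were 6.67% and 20% of the class, where 4.39% and 12.4% of all probesets were lower. *Kcnj11* encodes Kir6.2, the pore of the ATP-sensitive channels by which neurons sense energy supply. It measured 7.68, 7.59 and 7.74 in BPN/3J ‘trough’ mice 1, 3 and 4 and 7.10 to 7.44, with a median of 7.26, at ‘peak’ BP, without overlap. The difference of -0.39 (SE 0.08, adjusted *P* = 0.00433) was called under all 30 alternatives. The BPH/2J values were 7.57, 7.54 and 7.66 in ‘trough’ mice 1 to 3 and 7.35 to 7.59 at ‘peak’ BP, where the groups overlapped (-0.11, adjusted *P* = 0.469). *Kcnj8*, the other ATP-sensitive pore, of pericytes and smooth muscle, differed by -0.23 in BPH/2J mice (adjusted *P* = 0.349). The astrocytic rectifiers *Kcnj10* and *Kcnj16* differed by -0.23 and 0.10 in BPH/2J mice (adjusted *P* = 0.195 and 0.689). The G protein-gated *Kcnj3* and *Kcnj6*, opened by inhibitory receptors, differed by -0.20 and -0.11 (adjusted *P* = 0.344 and 0.519).

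Among the two-pore subunits, which carry the leak current at rest, 1 of 14 fell in BPH/2J mice and 6 fell in BPN/3J mice. These were 7.14% and 42.9% of the class, where 4.39% and 12.4% of all probesets were lower. The one in BPH/2J mice was *Kcnk9* (TASK-3), a leak channel closed by acid and by many transmitters. It was at 9.14, 9.20 and 9.35 in BPH/2J ‘trough’ mice 1 to 3 and at 8.50 to 8.99 at ‘peak’ BP, without overlap (-0.49, SE 0.13, adjusted *P* = 0.0270), and its difference in BPN/3J mice was -0.28 (adjusted *P* = 0.116). The larger falls in BPN/3J mice were those of *Kcnk5* (-0.57, SE 0.14, adjusted *P* = 0.00995), *Kcnk16* (-0.51, adjusted *P* = 0.0423) and *Kcnk15* (-0.50, adjusted *P* = 0.0426). *Kcnk2*, *Kcnk3* and *Kcnk13* differed by -0.10, -0.07 and -0.07 there and were not called (adjusted *P* = 0.541, 0.686 and 0.653). The signal of *Kcnk5* lay under the 40th percentile of the array.

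Many of the falls in BPN/3J mice were of genes with a low signal. Of the 20 genes, 10 were below the median signal of all probesets. Of the 23 members below it, 10 fell (43.5%), where 13.7% of all such probesets fell, and of the 69 members above it 14.5% fell, where 11.1% of all such probesets did. The 20 genes had differences below 0 in BPH/2J mice in 19 cases. Array medians were 6.29 to 6.42 in BPN/3J ‘trough’ mice and 6.20 to 6.37 in BPN/3J ‘peak’ mice, and with each array centred on its median 13 genes fell in BPN/3J mice. In BPN/3J ‘trough’ mouse 3 the mean of 6 pituitary markers was 8.24, against 5.37 to 6.34 in the other BPN/3J mice, with *Gh* and *Prl* called lower at ‘peak’ BP (-2.48 and -1.51). Without that mouse 11 members were called in BPN/3J mice, as given above.

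Among the auxiliary subunits, *Kcnab3* and *Kcnab2* fell and *Kcnip4* rose in BPH/2J mice, and *Kcnip3* and *Kcnip4* rose in BPN/3J mice. The shares called were 18.8% and 12.5% of the class, where 8.64% and 25.3% of all probesets were called. The Kcnab genes encode the beta subunits of Kv1 channels, which bind NADPH and assist their placing on axons. *Kcnab3* measured 8.49, 8.71 and 8.81 in BPH/2J ‘trough’ mice 1 to 3 and 7.60 to 8.22, with a median of 8.06, at ‘peak’ BP, without overlap, and its difference of -0.68 (SE 0.18, adjusted *P* = 0.0242) was the largest in size of the 92 genes in BPH/2J mice. Its BPN/3J values were 9.07, 9.01 and 8.68 in ‘trough’ mice 1, 3 and 4 and 8.18 to 9.02 at ‘peak’ BP (-0.39, adjusted *P* = 0.110). *Kcnab2* was at 11.12, 11.16 and 11.16 in BPH/2J ‘trough’ mice and at 10.75 to 10.94 at ‘peak’ BP, again without overlap (-0.29, SE 0.08, adjusted *P* = 0.0287). *Kcnip2* and *Kcnmb4* differed in BPH/2J mice by -0.31 and -0.11 (adjusted *P* = 0.555 and 0.742). Of the other symbols, the antisense transcripts *Kcnd3os* (-0.52, SE 0.12, adjusted *P* = 0.00756) and *Kcnmb4os2* (-0.50, SE 0.14, adjusted *P* = 0.0170) fell in BPN/3J mice. In BPH/2J mice 0 of these 4 were called, where 8.64% of all probesets were. In BPN/3J mice 50% of these 4 were lower, where 12.4% of all probesets were.

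The mean levels of vessel, oligodendrocyte and precursor cell markers did not overlap between the times in BPH/2J mice. In BPN/3J mice those of precursor markers did not. Of 8 pericyte and smooth muscle markers, 2 were called lower in BPH/2J mice. Their mean was 8.03 to 8.28 at ‘trough’ and 7.46 to 8.02 at ‘peak’ BP. That of 6 endothelial markers was 7.78 to 7.83 and 7.38 to 7.54, with 2 of the 6 lower, and that of 3 oligodendrocyte precursor markers was 8.30 to 8.35 and 7.88 to 8.09, with 1 of the 3 lower. That of 6 oligodendrocyte markers was 10.746 to 10.789 and 10.281 to 10.734, with 0 of the 6 called. The mean of 7 neuronal markers was 11.21 to 11.35 at ‘trough’ and 11.14 to 11.30 at ‘peak’ BP, with an overlap and 1 of 7 higher. In BPN/3J mice the pericyte mean was 7.69 to 7.94 at ‘trough’ and 7.47 to 8.20 at ‘peak’ BP, with 1 of 8 lower (*Pdgfrb*) and 1 higher (*Rgs5*), and the endothelial mean was 7.67 to 7.72 and 7.36 to 7.77, with 1 of 6 lower (*Cldn5*). The precursor mean there was 8.08 to 8.27 at ‘trough’ and 7.72 to 8.04 at ‘peak’ BP, with *Cspg4* lower in both strains. The oligodendrocyte mean there was 10.336 to 10.792 and 10.234 to 10.835, with an overlap and 0 of 6 called. The neuronal mean was 11.18 to 11.26 at ‘trough’ and 11.18 to 11.28 at ‘peak’ BP in BPN/3J mice, with 2 of 7 lower (*Tubb3* and *Rbfox3*). The part of these cell types in the differences of the potassium channel genes was not tested.

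Between the strains, 4 of the 92 genes were called at ‘peak’ BP, or 4.35%, where 1.33% of all probesets were called (0.616% higher and 0.713% lower), and 2 at ‘trough’ BP, or 2.17%, where 0.529% were. The unadjusted *P* was under 0.05 for 13 and 10 of them, against 9.93% and 10.4% of all probesets. *Kcnk1* was lower and *Kcnn2* higher in BPH/2J mice at both times, and *Kcnip3* and *Kcnab2* were lower in BPH/2J mice at ‘peak’ BP. At ‘peak’ BP these 4 were also the members whose strains did not overlap, against 1.57% of all probesets. At ‘trough’ BP the strains did not overlap for 19 of the 92 genes, where 19.9% of all probesets did not.

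*Kcnk1* encodes TWIK-1, a two-pore leak subunit of neurons and astrocytes. It measured 10.12, 10.05 and 10.18 in BPH/2J ‘trough’ mice 1 to 3, and 10.46, 10.57 and 10.54 in BPN/3J ‘trough’ mice 1, 3 and 4. At ‘peak’ BP it ran from 10.11 through a median of 10.22 to 10.34 in BPH/2J and from 10.43 through 10.54 to 10.63 in BPN/3J mice. All 9 BPH/2J mice thus lay below all 9 BPN/3J mice, whatever the time. The difference was -0.30 (SE 0.06, adjusted *P* = 0.0121) at ‘peak’ and -0.41 (SE 0.08, adjusted *P* = 0.0348) at ‘trough’ BP, and between the times it was 0.12 in BPH/2J (adjusted *P* = 0.366) and 0.01 in BPN/3J mice (adjusted *P* = 0.953). The 250 bases before its RefSeq start, on the plus strand at chr8:125994852-125995101 (GRCm38.p6), are shown since it was one of the pair called between the strains at both times, with *Kcnn2*, and they held none of the 3 motifs named above.
Kcnk1: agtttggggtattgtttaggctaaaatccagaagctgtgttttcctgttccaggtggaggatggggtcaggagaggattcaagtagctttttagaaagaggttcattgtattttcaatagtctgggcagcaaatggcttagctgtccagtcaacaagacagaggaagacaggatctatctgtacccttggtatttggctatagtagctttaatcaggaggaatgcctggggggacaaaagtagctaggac

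*Kcnn2* encodes SK2, a small-conductance calcium-activated channel that carries the afterhyperpolarization following a train of spikes. It measured 8.52, 8.85 and 8.83 in BPH/2J ‘trough’ mice 1 to 3, and 7.85, 8.31 and 8.30 in BPN/3J ‘trough’ mice 1, 3 and 4. At ‘peak’ BP it ran from 8.48 through 8.69 to 8.73 in BPH/2J and from 8.13 through 8.19 to 8.39 in BPN/3J mice. All BPH/2J mice lay above all BPN/3J mice, by 0.44 (SE 0.09, adjusted *P* = 0.0125) at ‘peak’ and by 0.58 (SE 0.12, adjusted *P* = 0.0464) at ‘trough’ BP, a fold change of 1.36 and 1.49. The call at ‘peak’ BP held with every array left out in turn for *Kcnk1* and *Kcnn2*. Among all alternatives it was lost in 5 of 32 for *Kcnk1* and in 3 of 32 for *Kcnn2*. At ‘trough’ BP it was lost in 15 of 32 alternatives for *Kcnk1* and in 21 of 32 for *Kcnn2*, among them every fit without a ‘trough’ mouse for *Kcnk1*, and for *Kcnn2* those without BPH/2J mouse 2 or 3 or BPN/3J mouse 1 or 3.

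*Kcnip3* encodes KChIP3, also known as DREAM or calsenilin, which binds Kv4 channels and, in the nucleus, DNA. At ‘peak’ BP it ran from 8.62 through 9.01 to 9.07 in BPH/2J and from 9.18 through 9.40 to 9.60 in BPN/3J mice, without overlap (-0.45, SE 0.09, adjusted *P* = 0.0107). At ‘trough’ BP it measured 8.83, 8.88 and 8.92 in BPH/2J mice 1 to 3 and 9.01, 9.04 and 9.09 in BPN/3J mice 1, 3 and 4, again without overlap, but the difference of -0.17 was not called (adjusted *P* = 0.638). *Kcnip3* rose at ‘peak’ BP in BPN/3J mice (0.34, SE 0.11, adjusted *P* = 0.0304) and differed by 0.06 between times in BPH/2J mice (adjusted *P* = 0.795), and the test of the difference of the strains between the times gave -0.28 (SE 0.15, adjusted *P* = 0.624). *Kcnab2* at ‘peak’ BP ran from 10.75 through 10.86 to 10.94 in BPH/2J and from 11.04 through 11.11 to 11.37 in BPN/3J mice (-0.30, SE 0.06, adjusted *P* = 0.0247). At ‘trough’ BP its values of 11.12 to 11.16 in BPH/2J mice lay below the 11.25 to 11.41 of BPN/3J mice, at a difference of -0.21 that was not called (adjusted *P* = 0.450). The calls at ‘peak’ BP were lost in 4 of 32 alternatives for *Kcnip3* and in 12 of 32 for *Kcnab2*, among them without BPH/2J ‘peak’ mouse 4, 5, 7 or 8 and without BPN/3J ‘peak’ mouse 7 or 8 (adjusted *P* up to 0.0675). With each array centred on its median *Kcnn2* alone was called at ‘peak’ BP, with an adjusted *P* of 0.0602 for *Kcnk1* and 0.0780 for *Kcnip3*, and 0 members were called at ‘trough’ BP.

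**Figure D4:**
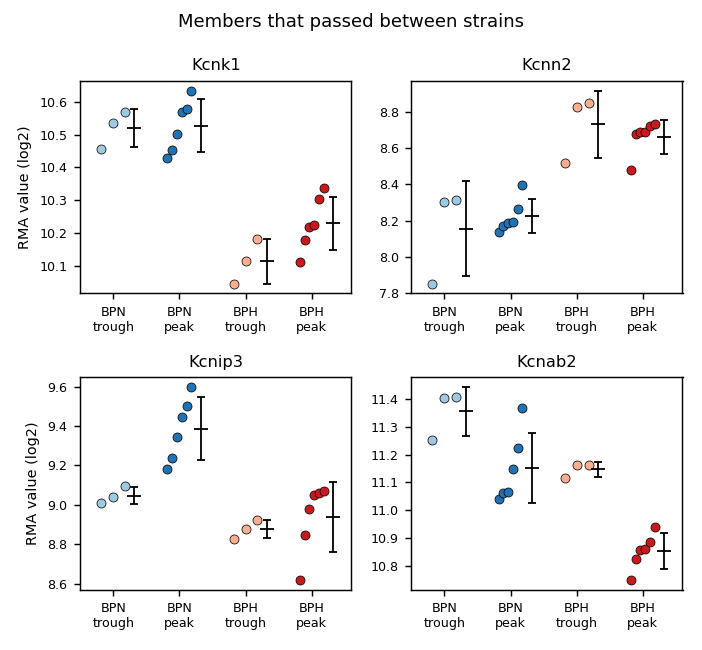
RMA values (log2, vertical axis) of the 4 potassium channel genes called between the strains, in each mouse by group, with circles for mice and bars for the group mean and SD. BPH/2J mice lie below BPN/3J mice of the same time for *Kcnk1*, *Kcnip3* and *Kcnab2* and above them for *Kcnn2*.

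The study’s question was which genes follow BP in the hypertensive strain beyond the change with time in the normotensive strain. That quantity, *d*, is the strain difference at ‘peak’ BP less the strain difference at ‘trough’ BP, and the *aFD* is *d* as a fold. In the limma fit 0 of the 92 genes were called for *d*, as were 0% of all probesets, and 6 genes had an unadjusted *P* under 0.05, where 8.31% of all probesets did. An *aFD* of 1.5 or more in size was reached by 0 of the 92 genes and by 5.93% of all probesets. The largest *d* in size was that of *Kcnh3*, 0.45 (SE 0.30, adjusted *P* = 0.667), and it moved with single ‘trough’ mice, to 0.14 without BPN/3J mouse 4 and 0.70 without BPN/3J mouse 1. The 6 genes under the unadjusted limit were *Kcnd3* at -0.30 (SE 0.12), *Kcnj11* at 0.28 (SE 0.12), *Kcnj15* at 0.38 (SE 0.14), *Kcnn4* at 0.38 (SE 0.18), *Kcnh4* at 0.40 (SE 0.18) and *Kcnd3os* at 0.44 (SE 0.18), with adjusted *P* values of 0.590 to 0.596. With weights for the arrays, *Kcnd3os* was called (adjusted *P* = 0.0318). *Kcnd3* fell with time in BPH/2J mice, and the other 5 of these genes fell in BPN/3J mice. *Kcnd3os* is an antisense transcript named for *Kcnd3*, and the labels do not say how the array’s probes treat overlaps of the pair. The further *Kcna2* probeset gave a *d* of -0.34 (unadjusted *P* = 0.0102, adjusted *P* = 0.589). The brighter one gave -0.35 (unadjusted *P* = 0.101, adjusted *P* = 0.634).

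*Kcnma1*, the large-conductance calcium-activated channel (BK) that neurons and smooth muscle share, had probesets that disagreed. The brighter one, with a mean of 9.68, measured 9.92, 9.91 and 9.88 in BPH/2J ‘trough’ mice 1 to 3 and 9.29 to 9.68 at ‘peak’ BP, and it gave differences between times of -0.38 in BPH/2J (SE 0.14, adjusted *P* = 0.0981) and -0.10 in BPN/3J mice (SE 0.14, adjusted *P* = 0.612). Its BPH/2J groups did not overlap, and its *d* was -0.28 (SE 0.19, adjusted *P* = 0.671). The dimmer one, with a mean of 3.90 at the 13.7th percentile of the array, gave a *d* of 0.86 (SE 0.28, unadjusted *P* = 0.00688, adjusted *P* = 0.589), or an *aFD* of 1.81, and fell in BPN/3J mice by 0.60 on the log2 scale (adjusted *P* = 0.0354). Of the 10 named probesets next to the brighter one by identifier, 10 carry genes of the chromosome of *Kcnma1*, with *Gm10248* and *Dlg5* at its sides. Of the 10 next to the dimmer one, 0 do, with *Fanca* and *Dbndd1* at its sides, so that its assignment to *Kcnma1* is uncertain.

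**Figure D5:**
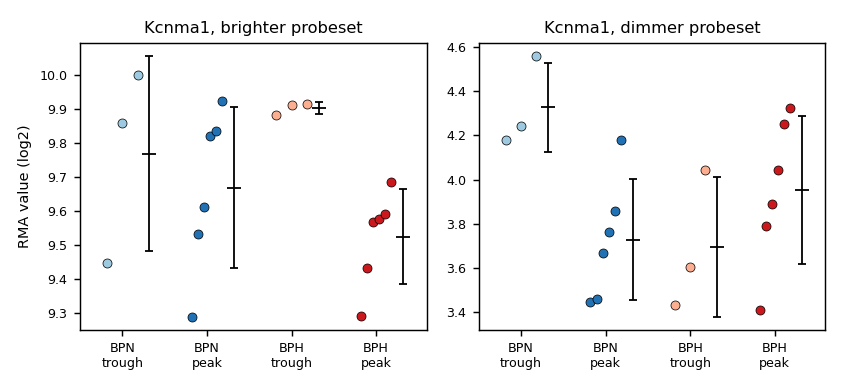
RMA values (log2, vertical axis) of the brighter and the dimmer probeset listed for *Kcnma1*, in each mouse by group, with circles for mice and bars for the group mean and SD. The scales of the panels differ and the groups are ordered differently by the 2 probesets.

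*Kcnj13*, a rectifier of the choroid plexus, varied more between mice than with strain or time, from 4.81 to 9.54. It was highest in BPN/3J ‘peak’ mouse 6 (9.54), BPH/2J ‘peak’ mouse 6 (9.43), BPH/2J ‘trough’ mouse 1 (8.91) and BPN/3J ‘trough’ mouse 4 (8.38) of their groups. The mean of 7 choroid plexus markers was highest of each group in the same 4 mice, at 9.09, 8.86, 8.76 and 8.38, and ran from 6.35 to 9.09 over all arrays. The SE of its time and strain differences was 0.94 to 1.33, so that a doubling was within the error. *Kcne2*, an auxiliary subunit of the same epithelium, differed between the strains by -0.60 at ‘peak’ (SE 0.24, adjusted *P* = 0.361) and by -0.62 at ‘trough’ BP (SE 0.34, adjusted *P* = 0.543). The part of choroid plexus in the values of both genes was not tested.

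Of 23 genes for partners of potassium channels, 4 fell and 1 rose in BPH/2J mice and 2 fell and 3 rose in BPN/3J mice. In either strain 21.7% were called, where the shares of all probesets called were 8.64% (BPH/2J) and 25.3% (BPN/3J). *Cntn2*, which gathers Kv1 channels beside the node of Ranvier, fell in both strains (-0.64, adjusted *P* = 0.00926, and -0.41, adjusted *P* = 0.0397), and *Vapa*, which tethers Kv2 clusters to the endoplasmic reticulum, rose in both (0.39, adjusted *P* = 0.00912, and 0.53, adjusted *P* = 0.000887). The ankyrins *Ank3* (-0.48, adjusted *P* = 0.0122) and *Ank2* (-0.41, adjusted *P* = 0.00581), which anchor channels at the axon initial segment and elsewhere, and *Abcc9* (-0.43, adjusted *P* = 0.0110), the sulfonylurea receptor of vessels, fell in BPH/2J mice. *Abcc9* is one of the 8 pericyte markers above. *Lgi1*, a secreted partner of Kv1 complexes, rose in BPN/3J mice (0.61, adjusted *P* = 0.00569).

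The other cation channels were read against the shares of all probesets given above, of which 4.39% were lower in BPH/2J mice and 12.4% in BPN/3J mice. Of 3 Hcn genes, *Hcn2*, a pacemaker channel opened by hyperpolarization, fell in both strains (-0.80, adjusted *P* = 0.00102, and -0.52, adjusted *P* = 0.00600). Of 24 calcium channel genes, 5 fell in BPH/2J mice (20.8%), and 9 fell (37.5%) and 1 rose in BPN/3J mice, led by *Cacna1i*, a T-type channel, at -0.73 in BPH/2J (adjusted *P* = 0.00194), and by *Cacng7*, an auxiliary subunit, at -0.66 in BPN/3J mice (adjusted *P* = 0.00470). Of 11 sodium channel genes, *Scn4b* (-0.91, adjusted *P* = 0.0370) and *Scn8a* (-0.55, adjusted *P* = 0.0108) fell and *Scn3b* (0.41, adjusted *P* = 0.0436) rose in BPH/2J mice, and *Scn3b* rose (0.35, adjusted *P* = 0.0435) and *Scn11a* fell (-0.44, adjusted *P* = 0.0439) in BPN/3J mice. The sodium channel genes had a median difference of 0.10 in BPN/3J mice, with 7 above and 4 below 0, and of -0.03 in BPH/2J mice, with 4 above and 7 below 0. Between the strains at either time, and for *d*, 0 of these 61 partner and channel genes were called in the limma fit, with 2, 5 and 4 of them, respectively, at an unadjusted *P* under 0.05.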

How the data were processed

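Total RNA was extracted from the hypothalamus (RNeasy) and 18 arrays were hybridized (Affymetrix Mouse Gene 1.0 ST), each with the RNA of 1 male mouse. The authors deposited log2 values of 34760 probesets after RMA normalization (version not given in the sources used here), and these were used without further normalization. Genes were named from the platform table: 21640 probesets have a single symbol, 1321 have several, and no gene is listed for 11799. All 92 members matched RefSeq by gene ID, and 0 symbols changed.

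Groups came from the sample titles. The series text gives the ‘trough’ mice as 19 weeks old and their labels as 18. Group means were fitted with limma 3.58.1 (R 4.3.3) over all 4 groups, with 14 residual and 2.94 prior degrees of freedom, and 5 contrasts were tested with empirical Bayes moderation, with Benjamini-Hochberg adjustment over all probesets and a threshold of 0.05. The number of arrays, 3 in each ‘trough’ group, limits the precision. The script was tested on simulated data. Figures were drawn with matplotlib 3.10.9.

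Named genes were, in each contrast, the members called, up to 10 per direction by size. Added were up to 6 per direction with the lowest unadjusted *P* for *d*, a fixed set of representatives of each class, members with an *aFD* of 1.5 or more, members whose probesets disagreed, and called partners, up to 4 per contrast. The members, the lists and the rule were chosen with earlier results of these data known.

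Alternatives were quantile normalization, median centring, leaving out probesets under the 40th percentile, array weights, a trend and robust prior, 2-group fits, a block for mouse number, subsets of the ‘peak’ mice by number, other probeset rules and leaving out each array. Residuals of mice with equal numbers correlated between -0.30 and 0.19. Unequal numbers were not compared, so these values cannot show whether mouse numbers pair the mice.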

Additional observations from a re-analysis of the deposited data

Results flagged for a closer look

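Among 35 named potassium channel genes in the ‘peak’ groups of 6 mice, 6 of 70 gene and group combinations held a mouse that stood apart by Dixon’s criterion, where about 1 in 20 is flagged by chance. In BPN/3J ‘peak’ mouse 11, *Kcnc1* measured 8.86 on the log2 scale, above the 8.41 to 8.50 of the other mice. *Kcnd3os* was at 8.0 in BPN/3J ‘peak’ mouse 7, against 7.36 to 7.58, and *Kcnh3* was at 6.75 in BPN/3J ‘peak’ mouse 8, against 6.17 to 6.37. *Kcna10* was at 5.19 in BPN/3J ‘peak’ mouse 6, below the 5.50 to 5.63 of the others. In BPH/2J mice, *Kcnip4* was at 10.02 in ‘peak’ mouse 6, against 10.25 to 10.35, and still above all BPH/2J ‘trough’ mice. *Kcnn2* was at 8.48 in BPH/2J ‘peak’ mouse 8, against 8.68 to 8.73, and still above all BPN/3J mice.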

How the results depend on the processing

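Of the calls of single genes between strains or times, those of *Kcnip4* in BPH/2J mice and of *Kcnj11* and *Kcnn4* in BPN/3J mice held under every alternative run. Values were recomputed for each gene in the comparisons where it was called, for the 6 genes listed for *d*, and for *Kcnma1* throughout. Of these values, 1275 kept their direction and side of the threshold, 263 lost it, 7 gained it and 6 reversed, all 6 for *Kcnma1*. The counts of genes called were 10 and 24 between the times in BPH/2J and BPN/3J mice, 4 and 2 between the strains at ‘peak’ and ‘trough’ BP, and 0 for *d*. With array weights they were 35 and 55 between the times, 24 between the strains at ‘trough’ BP and 1 for *d*, with a weight of 9.44 on BPN/3J ‘trough’ mouse 3 and of 0.41 and 0.64 on the others of its group. Median centring gave 4 in BPH/2J mice, 1 between the strains at ‘peak’ and 0 at ‘trough’ BP, and quantile normalization gave 1 at ‘trough’ BP. Fits of 2 groups only gave 12 in BPN/3J mice, 1 at ‘peak’ and 0 at ‘trough’ BP. With the higher-numbered ‘peak’ mice only, the counts were 1 and 6 between the times and 0 at both times between the strains. With the lower-numbered only there were 23 in BPH/2J mice, and with a term for the higher-numbered mice 21 and 37 between the times. The mean of a gene’s probesets and 1 probeset per gene both gave 17 in BPH/2J mice. Without both least correlated BPN/3J arrays, chosen after seeing the data, there were 17 and 12 between the times and 0 between the strains at ‘trough’ BP.

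Leaving out each array in turn gave 2 to 14 in BPH/2J and 10 to 29 in BPN/3J mice, 3 to 4 between the strains at ‘peak’ BP, 0 to 3 at ‘trough’ BP, and 0 for *d*. With the replicate block on 12 arrays, 0 genes were called between the strains at ‘peak’ and 0 at ‘trough’ BP, and 0 for *d*. Without the block the same 12 arrays, a choice made after seeing the data, gave 1 at ‘peak’ and 0 at ‘trough’ BP. No paired analysis was possible because the ‘peak’ and ‘trough’ mice of a strain share no numbers, for the comparisons of times. With the mean of its probesets, the strain difference of *Kcnma1* was 0.039 at ‘peak’ and -0.25 at ‘trough’ BP and its *d* 0.29. That mean takes in the dimmer probeset, of uncertain assignment, whose own strain differences were 0.22 and -0.63 and whose *d* was 0.86. With arrays left out in turn its strain difference at ‘trough’ BP ran from -0.025, without BPN/3J ‘trough’ mouse 1, to 0.25, and its time difference in BPN/3J mice from -0.26 to 0.016, the latter without ‘trough’ mouse 4. Without both least correlated arrays its strain difference at ‘trough’ BP was -0.025. The cause of the other changes was not tested, apart from the fewer arrays in fits that leave some out. No depth is defined for arrays, and members under the 40th percentile of signal are the least certain.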
